A study of Mus musculus with 6 samples.

Results

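Hexokinase, phosphofructokinase, aldolase, enolase and lactate dehydrogenase are enzymes of glycolysis that mammals make from several genes each, and 10 of these genes were compared here: Hk1, Hk2, Pfkl, Pfkm, Pfkp, Aldoa, Aldoc, Eno2, Ldha and Ldhb. Every probe set whose annotation named 1 of these symbols and no other gene was taken, which gave 23 probe sets for 10 of 18194 genes, out of 34958 probe sets that name a single gene and 45101 in all. The cells were descendants of Atoh1-expressing progenitors in the mouse rhombomere 1 and isthmus region, from which cerebellar granule cells and several groups of brainstem neurons arise. All embryos were Swiss Webster, from Atoh1-CreER males and females homozygous for the RCE reporter, in which Cre recombination switches on EGFP. The early group was labelled by tamoxifen (4 mg, scaled to the weight of the dam, by gavage) at E10.5, and the late group by the same dose at E13.5. EGFP-positive cells of both groups were sorted at E14.5, and 3 samples per group were each hybridised to 1 Affymetrix Mouse Genome 430 2.0 array. Recombination follows the expression of the Atoh1 transgene. Because both groups were collected at E14.5, the day of labelling and the time from labelling to collection differ together and cannot be told apart. The labels do not say whether samples came from separate litters or from pooled embryos, and the p-values therefore cover the variation among these 6 samples alone, part or all of which may be technical.

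Glycolysis turns glucose into pyruvate in the cytosol. Hexokinase traps glucose in the cell as a phosphate ester, phosphofructokinase commits it to the pathway, aldolase splits the sugar, enolase makes phosphoenolpyruvate, and lactate dehydrogenase interconverts pyruvate and lactate. Isoenzymes catalyse the same step but differ in kinetics, regulation and tissue. In the brain, Hk1 is the hexokinase of mature neurons while Hk2 is typical of growing and dividing cells, Pfkp is the platelet-type phosphofructokinase, Aldoc marks astrocytes and bands of Purkinje cells, and Eno2 is the neuron-specific enolase used as a marker of neuronal differentiation. Ldha encodes the subunit of lactate dehydrogenase that predominates in muscle and Ldhb the subunit that predominates in heart.

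The 6 arrays had median signals of 97.7 to 112 units. Spearman correlations over the tested probe sets were 0.889 to 0.906 among early arrays, 0.957 to 0.966 among late arrays and 0.761 to 0.811 across groups. The Actb 3′ over 5′ signal ratio, which reads RNA and labelling quality, was 17.4, 19.4 and 26.2 in early arrays, against 16.1, 15.0 and 12.9 in late arrays. Every early Actb ratio lay above every late one, so this quality reading cannot be told apart from the group. The same ratio for Gapdh overlapped between groups, at 10.6 to 13.2 in early arrays and 9.47 to 12.1 in late arrays. Summed signals of 7 cycling cell markers ranged from 4132 to 5451 in early cells and from 38518 to 39609 in late cells, and all 7 were lower in early cells. Summed signals of 8 markers of maturing neurons ranged from 81909 to 84395 in early cells and from 37390 to 40680 in late cells, with 4 higher in early cells and none lower by representative probe set. For Syt1, whose representative did not pass (log2 difference -0.04), 2 other probe sets passed as lower in early cells (adjusted p = 0.0031 and 0.0222). The 5 granule cell lineage markers, which include Atoh1 and Pax6, summed to between 22713 and 29975 in early cells and between 57248 and 61850 in late cells, and 4 were lower in early cells. Endothelial and pericyte markers summed to 1123, 524 and 2178 in early arrays and to 316, 1322 and 213 in late arrays. They were highest in early replicate 3 and late replicate 2, although the endothelial genes Pecam1 and Cdh5 lay below the array median on all 6 arrays. By representative probe set, Olig1 and Olig2 were higher and Pdgfra lower in early cells on the oligodendrocyte lineage list, and Csf1r was higher on the microglial list, although another tested probe set of Pdgfra and of Csf1r did not pass. Blood markers summed to 4724 units on early replicate 3, through the globin gene Hbb-y, and to between 91.0 and 410 on the other 5 arrays. The part of these differences in the results that follow was not tested.

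Of the 10 genes, Hk1, Pfkp, Aldoc and Eno2 were higher in early cells, Hk2 and Ldha were lower in early cells, and Pfkl, Pfkm, Aldoa and Ldhb did not pass the test. Each gene is represented by its brightest probe set on average over the 6 arrays (log2 scale), and the test was limma's two-sided test across all probe sets with a threshold of 0.05 on the Benjamini-Hochberg adjusted p. The background was high: of 11071 genes tested, 16.2% passed as higher in early cells and 13.9% as lower. The median difference, early minus late on the log2 scale, was 0.13 over the 10 genes and -0.03 over all genes tested. Of the 23 probe sets, 20 were above the array median on at least 3 arrays and were tested. Of these, 4 passed as higher in early cells, 2 as lower and 14 did not pass, beside 13.4% and 12.5% of 23491 tested probe sets. Eno2 was above the median on the 3 early arrays and on 0 late arrays. It thus entered the test only through the group where it is high, and with no filter it did not pass (limma adjusted p = 0.0623). The 3 early arrays lay above the 3 late arrays for 4 of the 10 genes, as they did for 26.0% of all genes tested. They lay below them for Hk2, Ldha and Ldhb, as for 26.4% of all genes.

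**Figure D1:**
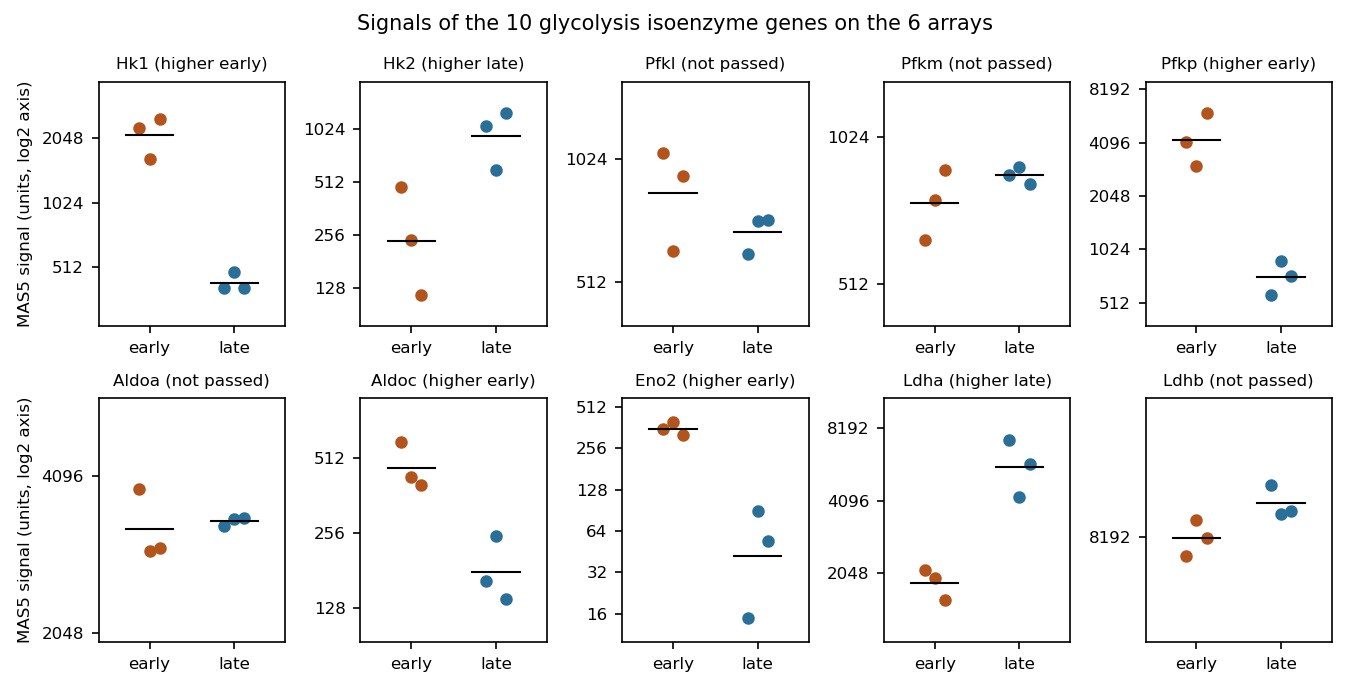
MAS5 signal (log scale, arbitrary units, y axis) of the representative probe set of each isoenzyme gene, with 1 point per array and early arrays left of late arrays in each panel; black lines are means of the log2 signals and each panel has its own scale. Early points lie above late points for Hk1, Pfkp, Aldoc and Eno2 and below them for Hk2, Ldha and Ldhb, while they overlap for Pfkl, Pfkm and Aldoa.

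Hexokinase showed opposite differences in its 2 main genes. Hk1 (chr10:62268855-62379920 on GRCm38.p6) had 2280, 1640 and 2496 units in the early arrays and 410, 486 and 409 units in the late arrays. Every early array was more than 3 times as bright as any late array. The means were 2139 ± 445 in early cells and 435 ± 44.2 in late cells (SD, n = 3 each), a 4.85-fold higher signal in early cells (log2 difference 2.28 ± 0.22 SE, 95% interval 1.74 to 2.82, limma adjusted p = 0.00204). In such sorted bulk samples, a different share of cells of a type and a different amount of RNA per cell cannot be told apart. A second Hk1 probe set lay below the median on all 6 arrays and was not tested.

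Hk2 (chr6:82725025-82774454) went the other way. It had 481, 240 and 118 units in the early arrays and 1055, 596 and 1258 units in the late arrays. The groups did not overlap, but the early values spread more than 4-fold and early replicate 3 was the lowest of all. Hk2 averaged 279 ± 185 units in early cells and 970 ± 339 units in late cells (SD, n = 3 each), 3.88-fold lower in early cells (log2 difference -1.95 ± 0.56 SE, 95% interval -3.30 to -0.60, limma adjusted p = 0.0472). The direction held in all 18 alternatives tried, while the adjusted p ranged from 0.017 to 0.191 and stayed above the threshold in use in 12 of them. It missed 0.05 on leaving out early replicate 2 (0.0857), early replicate 3 (0.0745), late replicate 1 (0.133), late replicate 2 (0.0647) or late replicate 3 (0.142). Without replicate 3 of both groups the log2 difference was -1.22. The promoter of Hk2 is shown because the gene is 1 of only 2 members lower in early cells. Capitals mark ACGTG, the core of the hypoxia response element bound by HIF proteins, and its variant GCGTG, on either strand, so that CACGT is ACGTG read on the other strand. Promoter windows here and below are the 250 bases before a RefSeq transcript start on GRCm38.p6.
Hk2 promoter, chr6:82774455-82774704, minus strand: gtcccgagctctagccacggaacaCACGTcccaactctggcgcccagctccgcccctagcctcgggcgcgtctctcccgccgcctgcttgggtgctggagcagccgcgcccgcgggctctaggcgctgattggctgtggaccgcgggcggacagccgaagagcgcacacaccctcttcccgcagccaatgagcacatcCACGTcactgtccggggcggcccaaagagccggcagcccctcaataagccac
The Hk2 window held ACGTG at 226 and 52 bases before the start, and no GCGTG.

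Phosphofructokinase has a liver-type, a muscle-type and a platelet-type subunit, and among them Pfkp passed the test. Pfkp (chr13:6579874-6649060) had 4137, 3036 and 6035 units in the early arrays, against 569, 876 and 724 units in the late arrays. The dimmest early array was more than 3 times as bright as the brightest late array. Its means were 4402 ± 1517 in early cells and 723 ± 153 in late cells (SD, n = 3 each), 5.95-fold higher in early cells (log2 difference 2.57 ± 0.31 SE, 95% interval 1.82 to 3.33, limma adjusted p = 0.0033). Within each group Pfkp was brightest on the array with the most endothelial marker signal. With those 2 arrays left out, a choice made after seeing the data, the log2 difference was 2.47 (limma adjusted p = 0.0286). On the arrays kept, endothelial and pericyte sums were still higher in early cells (1123 and 524 units) than in late cells (316 and 213 units). The part of such cells in the Pfkp difference was not tested. A second Pfkp probe set read 603, 649 and 1468 units in early arrays and 175, 526 and 252 units in late arrays. Its groups did not overlap, yet its log2 difference of 1.54 ± 0.52 did not pass (adjusted p = 0.0763), and another Pfkp probe set was too dim to test. The Pfkp promoter is shown as the counterpart of the Hk2 window, from the tested member with the largest difference that was well above background in both groups.
Pfkp promoter, chr13:6648772-6649021, minus strand: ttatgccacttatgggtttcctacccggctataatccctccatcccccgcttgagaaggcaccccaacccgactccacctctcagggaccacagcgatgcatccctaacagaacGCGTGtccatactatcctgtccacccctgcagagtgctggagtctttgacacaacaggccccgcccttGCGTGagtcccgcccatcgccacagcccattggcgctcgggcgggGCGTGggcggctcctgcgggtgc
It held GCGTG 3 times, at 136, 68 and 23 bases before the start, and no ACGTG.

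Pfkl, the liver-type subunit (chr10:77986947-78009807), had 1055, 610 and 931 units in early arrays and 598, 720 and 724 units in late arrays. The groups overlapped, and the log2 difference of 0.31 ± 0.26 (95% interval -0.31 to 0.94, adjusted p = 0.408) did not pass. The other Pfkl probe sets had log2 differences of 0.30 (adjusted p = 0.253) and 0.18 (adjusted p = 0.811). Pfkm, the muscle-type subunit (chr15:98092589-98132447), had 631, 763 and 879 units in early arrays and 858, 888 and 821 units in late arrays. These overlapped too, with a log2 difference of -0.19 ± 0.19 (95% interval -0.66 to 0.28, adjusted p = 0.511). Both intervals exclude a difference of the size seen for Pfkp.

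Aldolase differed in Aldoc. Aldoc (chr11:78323073-78327781), the brain-type aldolase, had 593, 430 and 399 units in early arrays and 163, 248 and 140 units in late arrays. All early values lay above all late values. The means were 474 ± 104 in early cells and 184 ± 57.1 in late cells (SD, n = 3 each), 2.62-fold higher in early cells (log2 difference 1.39 ± 0.29 SE, 95% interval 0.69 to 2.09, limma adjusted p = 0.018). The call failed in 5 of 18 alternatives. These were leaving out late replicate 1 (limma adjusted p = 0.0662), late replicate 3 (0.0657) or replicate 3 of both groups (0.0923), no filter (0.0739), and the threshold of 0.01. Of 8 markers of astrocytes and radial glia, 6 were tested, and 2 were higher and 2 lower in early cells. Their summed signals ranged from 12110 to 14069 in early cells and from 12846 to 15963 in late cells, with Gfap and Aqp4 below the array median on all arrays. Of 5 tested markers of Purkinje and GABAergic cells, Calb1, Gad1 and Gad2 were higher in early cells and Pvalb was lower. Sums over the list were 1983 to 3792 units in early cells and 4760 to 5231 in late cells. Pvalb alone made up most of the late sums, at 4712, 4044 and 4651 units, against 433, 417 and 212 units in early arrays. A second Aldoc probe set was too dim to test.

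Aldoa (chr7:126795234-126800994), the aldolase of muscle and most other tissues, had 3867, 2942 and 2983 units in early arrays and 3289, 3391 and 3404 units in late arrays. The groups overlapped, and the log2 difference was -0.05 ± 0.19 (95% interval -0.51 to 0.40, adjusted p = 0.856). The other 4 Aldoa probe sets had log2 differences of -0.27, -0.18, 0.23 and 0.47, with adjusted p of 0.392, 0.564, 0.455 and 0.0898. All 5 are of the type that can also hybridise to related transcripts, and their directions were mixed.

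Enolase was represented by Eno2 alone, since no probe set naming Eno1 by itself was analysed here. Eno2 (chr6:124760053-124769673) had 355, 397 and 321 units in early arrays and 14.8, 90.2 and 54.4 units in late arrays. Every late value lay below the median of its array, where MAS5 signals vary strongly on a log scale. The means were 358 ± 37.9 in early cells and 53.1 ± 37.7 in late cells (SD, n = 3 each), and the fitted log2 difference was 3.09 ± 0.64 SE (95% interval 1.54 to 4.65, limma adjusted p = 0.0181), or 8.54-fold. Late replicate 1, at 14.8 units, moved this size: without it the log2 difference was 2.35 (adjusted p = 0.0128). With signals below an array's median raised to that median, the difference was 3.47-fold (log2 1.79, limma adjusted p = 0.000458). This floor replaced every late value by its array's median and so removed the late spread. The smaller adjusted p is therefore no added support. The unfloored difference of Eno2 was the largest of the 10 genes. With the floor it was smaller in size than those of Pfkp, Hk1 and, in the other direction, Hk2 (3.88-fold). Neither the size nor the rank of Eno2 is therefore settled. Of the 8 other neuron markers described above, 4 were higher in early cells as Eno2 was, and 4 did not pass by their representative probe sets.

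Lactate dehydrogenase differed in its muscle-type subunit. Ldha (chr7:46842274-46855627) had 2099, 1947 and 1579 units in early arrays and 7294, 4228 and 5821 units in late arrays. The dimmest late array was at over 2 times the brightest early array. The means were 1875 ± 267 in early cells and 5781 ± 1533 in late cells (SD, n = 3 each), 3.03-fold lower in early cells (log2 difference -1.60 ± 0.26 SE, 95% interval -2.23 to -0.97, limma adjusted p = 0.00796). The call failed in 1 of 18 alternatives, with replicate 3 of both groups left out (adjusted p = 0.0823).

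Ldhb (chr6:142490249-142507957), the heart-type subunit, had 7488, 8850 and 8148 units in early arrays and 10441, 9121 and 9223 units in late arrays. All late values lay above all early values, by a small margin. The log2 difference was -0.23 ± 0.17 (95% interval -0.65 to 0.18, adjusted p = 0.359), which did not pass. The 3 other Ldhb probe sets had log2 differences of -0.42, -0.60 and -0.53, with adjusted p of 0.189, 0.0737 and 0.0815, and in each the late arrays lay above the early ones. The promoters of the Ldha and Ldhb genes are set side by side because these genes make the 2 subunits of the same enzyme and only Ldha passed.
Ldha promoter 1 of 2, chr7:46845554-46845803, plus strand: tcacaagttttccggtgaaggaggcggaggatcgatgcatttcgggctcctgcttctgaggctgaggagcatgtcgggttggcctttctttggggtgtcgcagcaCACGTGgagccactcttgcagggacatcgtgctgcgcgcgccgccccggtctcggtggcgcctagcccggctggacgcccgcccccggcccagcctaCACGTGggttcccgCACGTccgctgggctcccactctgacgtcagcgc
Ldhb promoter, chr6:142507958-142508207, minus strand: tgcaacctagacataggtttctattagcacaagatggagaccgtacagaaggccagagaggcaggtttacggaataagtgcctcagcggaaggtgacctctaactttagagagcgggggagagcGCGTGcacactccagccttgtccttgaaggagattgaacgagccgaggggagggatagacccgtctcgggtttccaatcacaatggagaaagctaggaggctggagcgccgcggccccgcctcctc
The Ldha window held the E-box CACGTG, which reads ACGTG on both strands, at 145 and 48 bases before the start, and 1 further ACGTG at 34 bases. The other Ldha window, not printed, held no ACGTG and 1 GCGTG, at 59 bases before its start. The Ldhb window held GCGTG once, at 126 bases before the start, and no ACGTG.

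**Figure D2:**
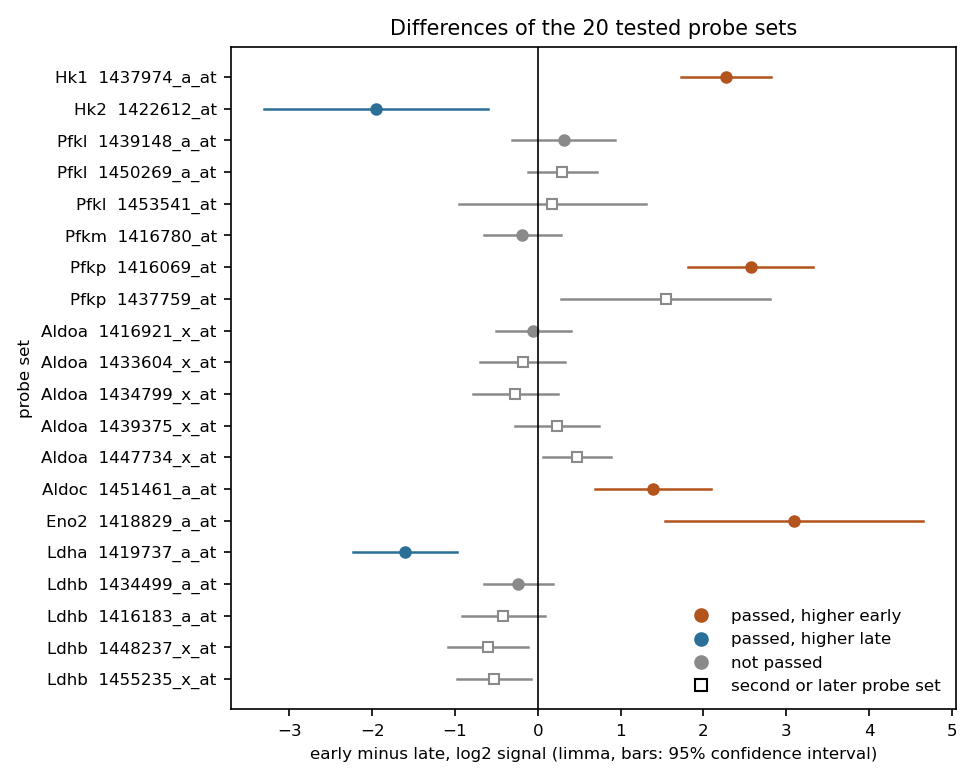
Difference of each tested isoenzyme probe set, early minus late in log2 signal (x axis), with bars for the 95% limma interval and 1 line per probe set, named by its identifier. The intervals of Hk1, Eno2, Aldoc and the brighter Pfkp probe set lie above 0 and those of Hk2 and Ldha lie below 0; of the others some miss 0 but did not pass after adjustment over all probe sets.

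Over all 10 genes, 18 promoter windows were given. Letters were searched on both strands. ACGTG occurred for 4 member genes, namely Hk2, Ldha, Pfkm and Aldoa, compared with 18.5% of 27025 genes. It occurred in 6 of the 18 member windows, compared with 16.6% of 32851 windows. By call, it was in 2 of 2 genes lower in early cells, 0 of 4 genes higher in early cells and 2 of 4 that did not pass. GCGTG occurred for 7 member genes, compared with 30.9% of genes, and in 9 member windows, compared with 28.2% of windows. It was in 3 of 4 genes higher in early cells, 1 of 2 lower and 3 of 4 that did not pass. CACGTG occurred for Ldha and Pfkm, compared with 6.86% of genes, and in 2 member windows, compared with 6.02% of windows. Pfkm had 4 windows, Aldoa 3, and Hk1, Aldoc and Ldha 2 each, which gives them more room for a match. Some windows of a gene overlap, as for Aldoa, so a match can count more than once among windows. A match describes letters in a window and is no measurement of binding.

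To compare the isoenzymes of a step without the scaling of the arrays, the log2 ratio of 2 members was taken within each array and its mean compared between groups. The level of such a ratio has no meaning, since different probe sets differ in brightness, so only its difference between groups is read. The log2 ratio of Hk2 to Hk1 was -2.25, -2.77 and -4.40 in early arrays and 1.36, 0.29 and 1.62 in late arrays. No values overlapped, and the difference of -4.23 ± 0.77 (SE) corresponds to an 18.8-fold shift towards Hk1 in early cells. Its size rests in part on early replicate 3: the difference was -3.60 without that array and -3.34 without replicate 3 of both groups. The log2 ratio of Ldha to Ldhb was -1.83, -2.18 and -2.37 in early arrays and -0.52, -1.11 and -0.66 in late arrays. Its difference of -1.37 ± 0.24 is a 2.58-fold shift towards Ldhb in early cells. For Aldoa to Aldoc the ratio averaged 2.79 ± 0.10 in early cells and 4.24 ± 0.43 in late cells (SD, n = 3 each), a difference of -1.44 ± 0.25 or 2.72-fold towards Aldoc.

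Among the phosphofructokinases, the log2 ratio of Pfkl to Pfkp averaged -2.33 ± 0.36 in early cells and -0.07 ± 0.19 in late cells, and that of Pfkm to Pfkp averaged -2.50 ± 0.44 in early cells and 0.26 ± 0.30 in late cells (SD, n = 3 each). The differences of -2.26 ± 0.24 and -2.76 ± 0.30 are 4.78-fold and 6.77-fold shifts towards Pfkp in early cells. The ratio of Pfkl to Pfkm averaged 0.17 ± 0.54 in early cells and -0.33 ± 0.17 in late cells, and the groups overlapped (exact permutation p = 0.3). For the other 5 of 6 pairs the groups did not overlap. The exact two-sided permutation test gave p = 0.1 each, the smallest p that 3 arrays against 3 allow (0.12 after Benjamini-Hochberg adjustment over the 6 pairs). Among all single genes tested, the early arrays lay above the late arrays for 26.0% and below them for 26.4%. No such share was taken over pairs. Each of the 5 pairs holds a member that passed the test, and both Pfkp ratios rest on the Pfkp difference. The pairs are therefore no separate support. A within-array ratio shows that 2 members changed unequally, not that either of them stayed constant.

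**Figure D3:**
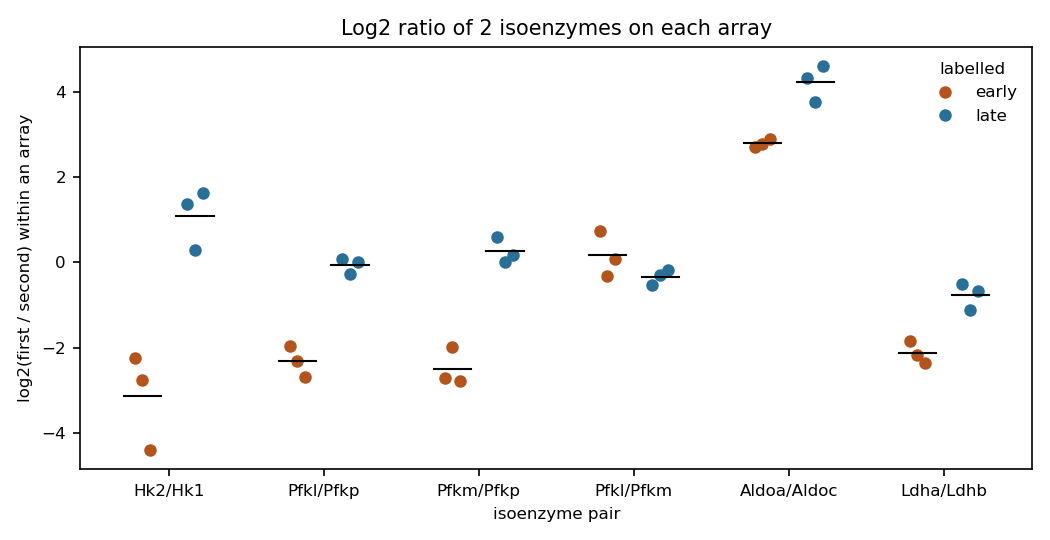
Log2 ratio of the signals of 2 isoenzymes of the same step within each array (y axis), with 1 point per array, early left of late, and black lines for group means. The early points lie below the late points for 5 of 6 pairs and overlap them for Pfkl/Pfkm; the height of a pair depends on probe brightness and only the gap between groups is read.

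The enzymes that work between and around these steps were read from 8 further lists of 92 genes, of which 83 had a single-gene probe set and 64 were tested. In all, 10 were higher in early cells, 7 were lower and 47 did not pass, with a median log2 difference of -0.07. These shares are near the 16.2% higher and 13.9% lower over all genes tested, so the counts of the lists do not stand out from the background. Among 7 tested genes of the rest of glycolysis, 1 passed: Bpgm, which makes the 2,3-bisphosphoglycerate side product, at 1840 ± 23.1 units in early cells and 1191 ± 85.8 in late cells (SD, n = 3 each; adjusted p = 0.0354). The other 2 tested Bpgm probe sets did not pass (log2 differences of 0.61 and 0.20). Pkm, the pyruvate kinase of most tissues, had 2480, 1446 and 2657 units in early arrays and 3986, 3279 and 4008 units in late arrays. The Pkm groups did not overlap, but the log2 difference of -0.82 did not pass (adjusted p = 0.0797). Pgk1, phosphoglycerate kinase, had a log2 difference of -0.04 (adjusted p = 0.918). The 3′ Gapdh control probe set, left out of the tests as a control, averaged 15205 ± 1130 units in early cells and 19524 ± 1194 units in late cells, and the middle and 5′ sets were also lower in early cells by 1.62-fold and 1.43-fold. The median log2 difference of the 7 glycolytic genes was -0.42.

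Fructose 2,6-bisphosphate is the strongest activator of phosphofructokinase. Of 4 tested genes that make or remove it, 2 were higher in early cells and 2 did not pass. Pfkfb3, a kinase that makes it, averaged 489 ± 53.7 units in early cells and 217 ± 31.0 in late cells (SD, n = 3 each), 2.26-fold higher in early cells (adjusted p = 0.00847). Pfkfb4 was 1.81-fold higher in early cells (adjusted p = 0.0304). These 2 genes differed in the same direction as Pfkp. So did 16.2% of all genes tested, and a link between them was not tested.

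Among 7 tested transporters of glucose and lactate, 2 were higher and 1 was lower in early cells. Slc2a3, the neuronal glucose transporter GLUT3, averaged 3146 ± 792 units in early cells and 1416 ± 165 in late cells (SD, n = 3 each), 2.18-fold higher in early cells (adjusted p = 0.0216). Slc16a7, the monocarboxylate transporter MCT2 of neurons, averaged 534 ± 202 units in early cells and 90.2 ± 11.4 in late cells, where all values lay below the array median (adjusted p = 0.00456). Like Eno2, Slc16a7 thus entered the test only through the group where it is high. Slc16a1, the transporter MCT1, averaged 315 ± 252 units in early cells and 1074 ± 151 in late cells. Its log2 difference of -2.14 did not pass (adjusted p = 0.0567). Slc2a4, the insulin-regulated transporter GLUT4, was 2.61-fold lower in early cells (adjusted p = 0.0379). Slc2a1, the glucose transporter GLUT1 of blood vessels and glia, had 1127, 1017 and 2695 units in early arrays and 1295, 2291 and 1205 units in late arrays (log2 difference -0.07, adjusted p = 0.926). Its highest values were on the same 2 arrays as those of the endothelial markers.

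Where pyruvate enters mitochondria, 2 of 11 tested genes were higher and 2 were lower in early cells. Pdp1, the phosphatase that activates pyruvate dehydrogenase, averaged 1668 ± 370 units in early cells and 497 ± 45.5 in late cells (SD, n = 3 each), 3.31-fold higher in early cells (adjusted p = 0.00389). Dlat, a core subunit of the complex, was 1.74-fold higher in early cells by its representative probe set (adjusted p = 0.027), while its other 2 tested probe sets leaned the other way and did not pass (log2 differences of -0.13 and -0.31). The inhibitory kinases Pdk3 and Pdk1 were lower in early cells. Pdk3 was 3.01-fold lower (adjusted p = 0.014). Pdk1 was 2.14-fold lower (adjusted p = 0.0115), although another Pdk1 probe set had a log2 difference of 0.28 that did not pass. By its representative probe set Pdk1 differed in the same direction as Ldha. So did 13.9% of all genes tested, and a link between them was not tested.

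Of 8 tested glycogen genes, Gyg, the glycogenin that primes glycogen, was 6.34-fold higher in early cells (2385 ± 788 units in early cells and 363 ± 53.6 in late cells, adjusted p = 0.00299). Pygb, the brain glycogen phosphorylase, was 1.64-fold higher in early cells (adjusted p = 0.0373), and Gbe1, the branching enzyme, was 3.71-fold lower in early cells (adjusted p = 0.049). None of 8 tested genes of the NADH shuttles passed. The largest differences there were Got1 at 0.78 (adjusted p = 0.159) and Slc25a12 at 0.56 (adjusted p = 0.115) on the log2 scale. None of 6 representatives of the pentose phosphate pathway passed, with Rpe at -0.93 (adjusted p = 0.0534) and Taldo1 at -0.47 (adjusted p = 0.101). A less bright Tkt probe set did pass, at 1418 ± 139 units in early cells and 3715 ± 136 in late cells (adjusted p = 0.00336), whereas the representative Tkt probe set did not (log2 difference -0.27, adjusted p = 0.285); it was singled out after its values were seen.

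Regulators known to act on glycolytic genes were read last. Of 13 tested, 1 was higher and 3 were lower in early cells. Mycn, a driver of granule cell precursor division, averaged 1567 ± 435 units in early cells and 5326 ± 240 in late cells (SD, n = 3 each), 3.50-fold lower in early cells (adjusted p = 0.00553). A dimmer Mycn probe set passed the opposite way, at 156 ± 45.8 units in early cells and 23.2 ± 11.6 in late cells (adjusted p = 0.00618). The Mycn probe sets thus disagree, but the late mean of the dimmer one lay far below the late array medians of 97.7 to 112 units. Its difference is therefore read against background-level signals. Myc was 2.73-fold higher in early cells (adjusted p = 0.03). Hif1a, the oxygen-regulated subunit of HIF, averaged 6937 ± 307 units in early cells and 10497 ± 260 in late cells, 1.51-fold lower in early cells (adjusted p = 0.0387). Of its other tested probe sets, 1 passed in the same direction (adjusted p = 0.0487) and 1 leaned the other way at a log2 difference of 0.49 (adjusted p = 0.0824). Hif3a was 2.52-fold lower in early cells (adjusted p = 0.0483).

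**Figure D4:**
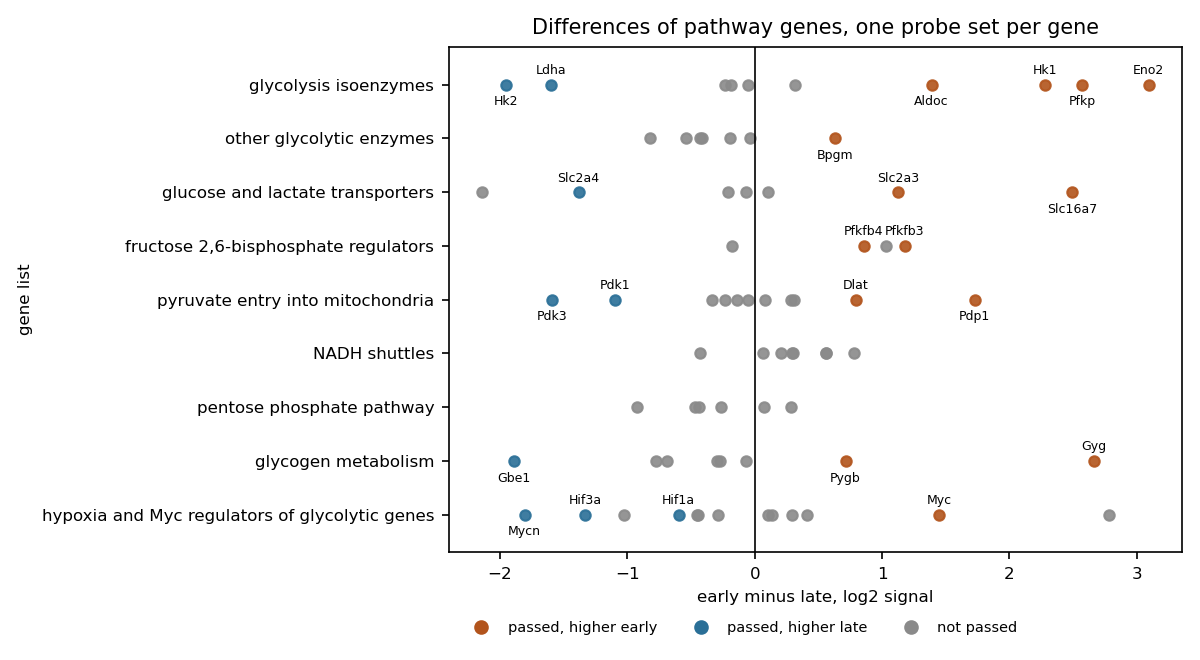
Difference of each tested gene, early minus late in log2 signal (x axis), for the isoenzymes (top line) and 8 related lists, with 1 point per gene by its representative probe set. Coloured points passed the test and are named; in the top line Aldoc, Hk1, Pfkp and Eno2 lie right of 0 and Hk2 and Ldha left of it.

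The genes most like Eno2 over the 6 arrays, out of 10656 searched, were Thsd7a (Pearson r = 0.999), Slc2a4rg-ps (0.998) and Ltbr (0.997), and 228 genes had r above 0.95. Those most like Hk2 were Tafa5 (0.996), Zbtb22 (0.993) and Tpp2 (0.993), and 114 genes had r above 0.95. Arrays of both groups enter these values, so the difference between the groups is part of each r, and only 6 points lie behind it.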

How the data were processed

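Total RNA of sorted cells was measured on 6 arrays. The deposited values are linear signal intensities made with MAS5, as named in the submitters' processing notes. Its version is not given in the sources used here. The mean of every array was 500 once the lowest and highest 2% were dropped, which shows that the arrays had been scaled alike before deposit, so these signals do not show how much RNA a cell held. Symbols came from the platform annotation (34958 probe sets with 1 symbol, 932 with several, 9211 with none). The number of arrays limits the precision.

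Log2 signals were fitted with limma 3.58.1 (lmFit and eBayes, no covariates) in R 4.3.3, early minus late, and tested on simulated data first. The 64 control probe sets were left out, and a probe set was tested if above its array's median in at least 3 arrays. P-values were adjusted over all 23491 tested probe sets, with folds taken from the log2 differences. Members, gene lists and alternatives were chosen with earlier results of these data known. Named were all members and, per list, up to 4 genes with the largest difference past the threshold (2 with no call where no gene passed), plus Pkm, Gapdh, Pgk1, Slc2a1, Slc2a3, Slc16a1, Hif1a and Mycn. For the members with the largest difference in each direction, the 3 genes most correlated with them were also named. A planned Eno2 to Eno1 ratio was not made, and no protein sequence is shown. Promoters are from RefSeq.

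Same-numbered replicates did not deviate together (correlations of -0.03, -0.07 and -0.01), so the numbers were not taken as pairs. Alternatives were quantile normalization, median centring, a floor at the array median, 5.97 units added before log2, a filter at the 70th percentile or none, an intensity trend with robust settings, array weights, the replicate block, other ways to represent a gene, a threshold of 0.01, each array left out, and replicate 3 of both groups left out. Early replicate 3 and late replicate 2 were left out together as an alternative added after seeing the data.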

Additional observations from a re-analysis of the deposited data

How the results depend on the processing

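No alternative turned the direction of a member gene that passed. Hk1 and Pfkp passed in all 18 alternatives in which they were tested, at adjusted p of up to 0.0388 and 0.042. Against 6094 probe sets called, there were 2719 with no filter, 3590 with the replicate block, 2433 at a threshold of 0.01, 1336 with replicate 3 of both groups left out, 1753 with early replicate 3 and late replicate 2 left out (chosen after seeing the data), and 2971 to 5496 with 1 array left out. The count of 4 member genes higher in early cells became 2 with no filter, at 0.01 and with replicate 3 of both groups left out. It became 3 with the 70th percentile filter and with early replicate 3 and late replicate 2 left out. It was also 3 with probe sets ending in _x_at, _s_at or _a_at avoided as representatives, and 3 to 4 with 1 array left out. In several of these alternatives only 9 of the 10 genes were tested. The count of 2 lower in early cells became 1 with quantile normalization, no filter, array weights, the replicate block, 0.01 or early replicate 3 and late replicate 2 left out, 0 with replicate 3 of both groups left out, and 1 to 2 with 1 array left out. Against 10 other pathway genes higher in early cells, there were 3 with no filter, 4 with the replicate block, 4 at 0.01, 2 with replicate 3 of both groups left out, 2 with early replicate 3 and late replicate 2 left out, and 4 to 7 with 1 array left out. Against 7 lower, the counts in the same order were 1, 2, 1, 0, 1 and 3 to 7, and 12 with an intensity trend. Only the counts were compared, not which genes made them. Hk2 had adjusted p of 0.0502 with quantile normalization, 0.0528 with array weights, 0.131 with no filter and 0.0786 with the replicate block. Aldoc (0.0739) and Eno2 (0.0623) missed the threshold with no filter. Eno2 could not be tested with any early array left out, because the filter still asked for 3 arrays. With all tested probe sets of each gene averaged, the pair differences were -1.80 for Pfkl to Pfkp and -2.25 for Pfkm to Pfkp. With the other Aldoc probe set, which lay below the median on all 6 arrays, Aldoa to Aldoc was -2.24, a size read from background-level signals; Aldoa has only probe sets that can cross-hybridise. Among probe sets that did not pass, the second of Pfkp passed in 5 of 18 alternatives, 2 of Ldhb in 3 and 2, and 1 of Aldoa in 2. Signals below the array median limit the size of the Eno2 and Slc16a7 differences, and of that of the dimmer Mycn probe set.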
